A study of Mus musculus with 8 samples.

Results

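Atf3 and 9 further genes of the integrated stress response were examined in RNA-Seq libraries of mouse primordial follicles. The 10 genes, Atf3, Atf4, Atf5, Ddit3, Trib3, Chac1, Asns, Ddit4, Sesn2 and Ppp1r15a, were all among the 26586 gene symbols counted, and 9 of them were among the 13873 genes that passed the filter on low counts. They were selected on the values of this same contrast, since Atf3 had differed between the groups in earlier results from these counts, and the others were added as genes of its pathway. Their values are therefore given as a description, no test of the 10 genes as a set was made, and their outcomes in the tests across all genes are not used as support.

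The study examined the safety of adding mitochondria to oocytes at fertilisation, by fertility, ovarian reserve, weight and tissue structure in later generations, and expression in primordial follicles was measured as a follow-up. The 4 mito-supplemented samples were follicles of offspring of the third generation, on a C57Bl/6 x CBA background, whose founders arose from oocytes that received a sperm by intracytoplasmic injection together with mitochondria isolated from egg precursor cells of the same strain. The founder embryos had also been cultured, vitrified and transferred. The 4 control samples had the same strain background, and the sources used here do not describe an injection, culture or transfer in their ancestry, so that supplementation and these procedures cannot be told apart. All samples were taken on postnatal day 3. Follicles were freed from the ovaries with a collagenase mixture at warm temperature, picked by hand, frozen and lysed, and the RNA was amplified before sequencing. Control replicates 1 and 2 begin with the same label code (280), as do control replicates 3 and 4 (301) and mito-supplemented replicates 1, 2 and 3 (C56), while mito-supplemented replicate 4 has another (C60). The labels do not say whether a shared code marks a litter or a dam, so that p values may partly measure the spread between related samples. The libraries held between 10370045 and 19760763 counts. Every direction given here follows the sample labels. The study's own display of its expression data could be read with the groups the other way round.

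The integrated stress response is a pathway by which cells lower general protein synthesis under stress. Kinases that sense different stresses phosphorylate the translation factor eIF2, most mRNAs are then translated less, and the mRNA of the transcription factor ATF4 is translated more. ATF4 and its partners raise transcription of genes for amino acid supply, for further transcription factors such as CHOP (encoded by Ddit3) and ATF3, and for the phosphatase subunit GADD34 (encoded by Ppp1r15a), which restores eIF2. Impaired mitochondria are known to activate this pathway. As ATF4 is controlled at translation, an mRNA level does not measure its activity. Atf3 is also an immediate-early gene, induced within a short time by growth factors, tissue injury and cell dissociation. A primordial follicle is a dormant oocyte enclosed by flattened pregranulosa cells.

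Atf3 was the only one of the 10 genes whose 2 groups did not overlap. Its level in CPM (read counts scaled to a common library size by the TMM method) was 1.27, 7.29, 13.5 and 2.76 for replicates 1 to 4 of the controls, and 45.1, 133, 69.1 and 192 for those of the mito-supplemented group. These levels rest on 31, 92, 236 and 14 counts in control libraries and on 930, 1920, 1522 and 2766 counts in mito-supplemented libraries. The mean was 6.21 ± 5.49 CPM (SD, n = 4) in control libraries and 109.9 ± 66.3 CPM (SD, n = 4) in mito-supplemented libraries. The log2 fold change of mito-supplemented over control was 4.14 ± 0.79 (SE), and the ratio of the means was 17.7. Within the mito-supplemented group the highest library, replicate 4, and the lowest, replicate 1, were both above every control library. Atf3 lies on chromosome 1 at chr1:191170296-191218039 of GRCm38, on the minus strand, and its exons overlap no other annotated gene.

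The other transcription factors of the pathway did not separate the groups. Atf4, the central activator, had 8.98, 46.5, 32.2 and 32.6 CPM in control libraries and 84.0, 20.4, 22.0 and 12.9 CPM in mito-supplemented libraries. The highest Atf4 value was mito-supplemented replicate 1, while the other 3 mito-supplemented libraries lay within the control range. Its log2 fold change was 0.21 ± 0.66 (SE), and it was -0.69 without mito-supplemented replicate 1. Atf5, a related factor linked to the mitochondrial unfolded protein response, had between 3.90 and 17.4 CPM in control libraries and between 3.88 and 44.1 CPM in mito-supplemented libraries, again highest in mito-supplemented replicate 1. Its log2 fold change of 0.80 ± 0.76 (SE) became -0.12 without that library. Ddit3, which encodes the pro-apoptotic factor CHOP, had 2.30, 46.2, 20.02 and 5.92 CPM in control libraries and 29.6, 13.5, 7.67 and 6.74 CPM in mito-supplemented libraries. Its 3 highest libraries were control replicates 2 and 3 and mito-supplemented replicate 1, and its log2 fold change was -0.37 ± 0.85 (SE), while the difference of its mean log2 CPM was 0.17. Without control replicate 2 the value for Ddit3 became 0.61, and without mito-supplemented replicate 1 it became -0.99. Annotated exons of other gene entries, among them those of Gm4189 and Mars, cover 10.9% of the exon length of Ddit3. As the handling of such reads is not given in the sources used here, its counts are less certain.

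Among the effector genes, Ppp1r15a and Asns repeated the pattern of Ddit3. Ppp1r15a, the feedback phosphatase subunit, had 17.5, 165, 80.7 and 33.0 CPM in control libraries and 223, 28.3, 22.0 and 33.0 CPM in mito-supplemented libraries. The same 3 libraries were the highest, 2 of them controls, and the log2 fold change was 0.05 ± 0.87 (SE), while the difference of mean log2 CPM was -0.19. Leaving out mito-supplemented replicate 1 gave -1.40 for Ppp1r15a, and leaving out control replicate 2 gave 0.81. Asns, asparagine synthetase, had 2.17, 121, 73.5 and 2.57 CPM in control libraries and 80.1, 11.2, 19.3 and 7.30 CPM in mito-supplemented libraries. Its log2 fold change was -0.76 ± 1.20 (SE), whereas the difference of its mean log2 CPM was 0.31. For Ddit3, Ppp1r15a and Asns the sign thus depended on how the libraries were averaged. For Asns the log2 fold change was -1.97 when mito-supplemented replicate 1 was dropped and 0.17 when control replicate 2 was. Trib3, a pseudokinase that restrains ATF4, did not pass the filter. It had 0, 99, 2 and 0 counts in control libraries and 296, 2, 11 and 0 counts in mito-supplemented libraries, so that control replicate 2 and mito-supplemented replicate 1 held nearly all of its counts.

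Chac1, which degrades glutathione, was the gene with the lowest log2 fold change of the 9, at -2.79 ± 1.64 (SE). It had 61, 164, 26 and 0 counts in control libraries and 43, 0, 4 and 2 counts in mito-supplemented libraries, or at most 13.0 and 2.09 CPM. Its groups overlapped, and control replicate 4 and mito-supplemented replicate 2 held 0 counts, which allows up to 0.592 and 0.208 CPM by counting error alone (3 counts). Leaving out control replicate 2 moved the value to -1.15, and leaving out mito-supplemented replicate 1 moved it to -5.16. Sesn2, an inhibitor of the growth kinase complex mTORC1, had between 0 and 10.5 CPM in control libraries and between 4.09 and 26.8 CPM in mito-supplemented libraries, with a log2 fold change of 1.09 ± 1.08 (SE). Sesn2 was at 0 counts in control replicate 4, the library with the fewest counts, and its value was 0.27 without mito-supplemented replicate 1. Ddit4, another mTORC1 inhibitor that also responds to low oxygen and glucocorticoids, varied least. It had 6.60, 10.1, 9.66 and 16.6 CPM in control libraries and 9.90, 19.7, 11.7 and 25.9 CPM in mito-supplemented libraries, and its log2 fold change was 0.65 ± 0.49 (SE).

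**Figure D1:**
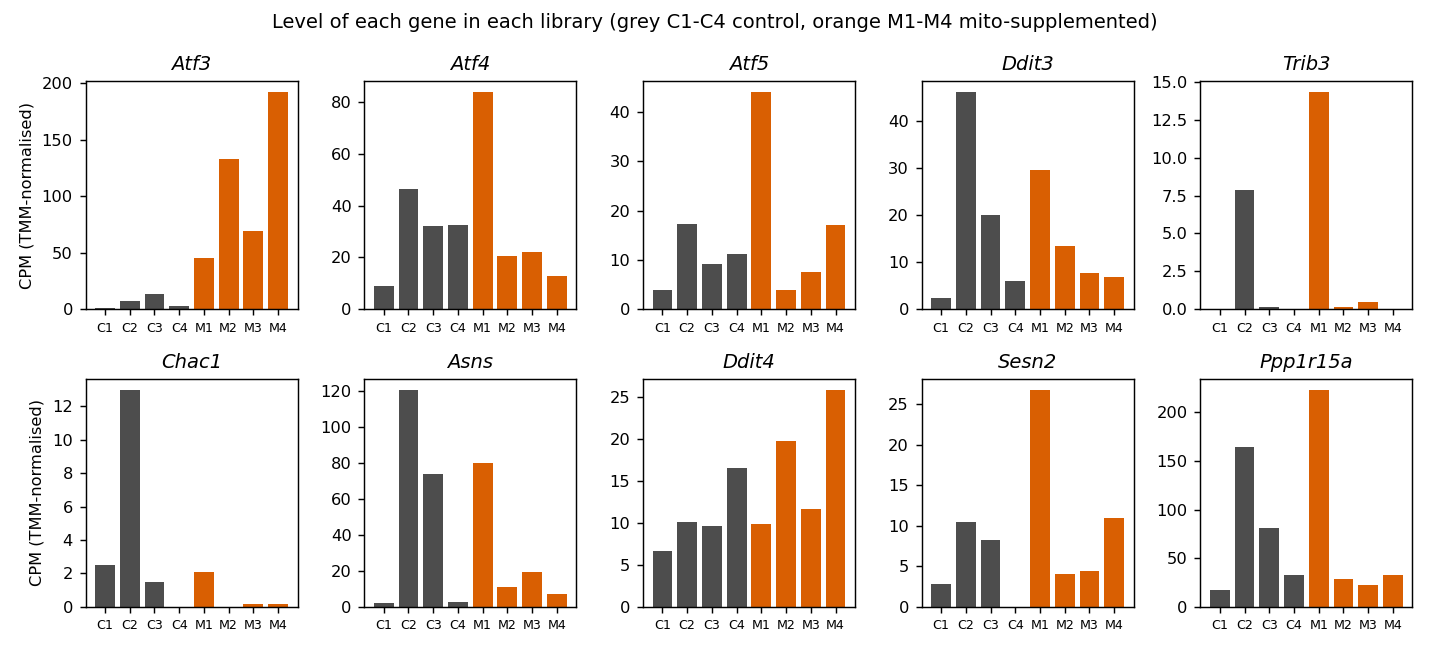
Level of each of the 10 genes in CPM (TMM-normalised, linear axes from 0) in each control (grey, C1 to C4) and mito-supplemented (orange, M1 to M4) library, 1 bar per library. Atf3 was at 45.1 CPM or more in every mito-supplemented library and at 13.5 CPM or less in every control, while Ddit3, Asns and Ppp1r15a were highest in C2, C3 and M1.

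In edgeR's quasi-likelihood test across all genes, with Benjamini-Hochberg adjustment, 0 of the 13873 genes (0%) passed an adjusted p value of 0.05 together with a 2-fold difference, and no adjusted p value was below 0.418. By unadjusted p values under 0.05, 736 genes (5.31%) were higher and 333 genes (2.4%) lower in mito-supplemented libraries. With edgeR's likelihood ratio test 58 genes (0.418%) passed the same thresholds, of which 57 were higher. DESeq2 called 141 genes, 131 higher and 10 lower. With sample quality weights limma-voom called 2578 genes, 1438 higher and 1140 lower, and without them it called 0. Of the 9 genes of the stress response tested, the quasi-likelihood test called 0 and the likelihood ratio test called 1, Atf3. DESeq2 and limma-voom with sample quality weights also called Atf3 alone of the 9, and limma-voom without weights called 0. Groups did not overlap for 416 of all genes in the higher direction (3%) and for 282 in the lower direction (2.03%), against 1 and 0 of the 9. As the genes were chosen with this contrast known, nothing is read from these calls and counts.

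Per kb of exon, averaged over all 8 libraries, the order of the levels was Atf3 (26.9 CPM per kb), Ppp1r15a (25.6), Asns (14.5), Atf4 (13.8), Ddit3 (9.63), Ddit4 (7.85), Atf5 (7.15), Sesn2 (2.44), Chac1 (1.48) and Trib3 (1.35). Between each pair of neighbours in this order the difference was smaller than the SD over the 8 libraries of the gene with the higher level. The order differed between the groups. In controls it ran Ppp1r15a, Asns, Atf4, Ddit3, Ddit4, Atf5, Atf3, Chac1, Sesn2 and Trib3, and in mito-supplemented libraries Atf3, Ppp1r15a, Atf4, Asns, Ddit4, Atf5, Ddit3, Sesn2, Trib3 and Chac1. For Atf3 the SD over all libraries was 32.7 CPM per kb, larger than its mean. In controls the mean of Atf3 was 2.88 ± 2.55 CPM per kb (SD, n = 4), and that of Ppp1r15a was 25.2 ± 22.5 CPM per kb (SD, n = 4). In mito-supplemented samples the corresponding means were 51.0 ± 30.8 and 26.1 ± 33.3 CPM per kb (SD, n = 4).

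Most of the variation of Ddit3, Asns and Ppp1r15a thus lay within the groups, and it followed 3 libraries. Control replicates 2 and 3 and mito-supplemented replicate 1 were the 3 highest libraries for 3 of the 9 genes, as they were for 1963 of all genes tested (14.1%). These libraries belong to 3 different label codes. Markers of red blood cells and their precursors were high in the same 3 libraries. Of 8 red cell markers listed, 6 were found in the file, and their summed level was 13.4, 3618, 2404 and 41.4 CPM for the 4 controls in order of replicate number, and 4535, 73.1, 20.3 and 19.6 CPM for the 4 mito-supplemented libraries. The most abundant was Slc4a1, the anion exchanger of the red cell membrane, with 4.06, 2504, 1704 and 22.3 CPM in control libraries and 2999, 47.6, 10.1 and 9.32 CPM in mito-supplemented libraries. The globin gene Hba-a1 was at 0 counts in 7 libraries, all but mito-supplemented replicate 1. Immune markers, 10 of 10 in the file, were also highest in these 3 libraries, with a summed level of 186, 156 and 995 CPM against at most 24.9 CPM in the other 5, and Lyz2 of macrophages and granulocytes was the most abundant. C1qb was at 0 counts in all 8 libraries and C1qa in 6. The part of red cell and immune cell RNA in the levels of the stress response genes was not tested. In such samples of mixed cells, a different number of cells of a type and a different amount of RNA per cell cannot be told apart.

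Eif2ak1, which encodes the eIF2 kinase that senses a shortage of haem and relays mitochondrial stress, was highest in the same 3 libraries. It had 60.1, 295, 192 and 32.2 CPM in control libraries and 395, 45.2, 32.8 and 32.8 CPM in mito-supplemented libraries, with a log2 fold change of -0.20 ± 0.94 (SE). It was the most abundant of the eIF2 genes by mean CPM over all 8 libraries, though Ppp1r15b was above it in controls. Ppp1r15b, the constitutive counterpart of GADD34 in restoring eIF2, had 53.4, 270.3, 215 and 46.0 CPM in control libraries and 175, 36.1, 40.1 and 32.0 CPM in mito-supplemented libraries. When the 3 libraries were left out, a choice made after seeing the data, edgeR's quasi-likelihood test still called 0 genes. With control replicates 1 and 4 against mito-supplemented replicates 2, 3 and 4, the log2 fold change was 6.13 for Atf3, 2.44 for Asns, 2.13 for Sesn2, 1.21 for Ddit3, 0.74 for Ddit4, 0.34 for Atf5, 0.15 for Ppp1r15a and -0.15 for Atf4. The larger values rest on few control counts. Control replicates 1 and 4 held 31 and 14 for Atf3, 53 and 13 for Asns, 70 and 0 for Sesn2 and 56 and 30 for Ddit3. Control replicate 1 also stood apart in oocyte markers, and control replicate 4 had the fewest counts of all libraries.

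**Figure D2:**
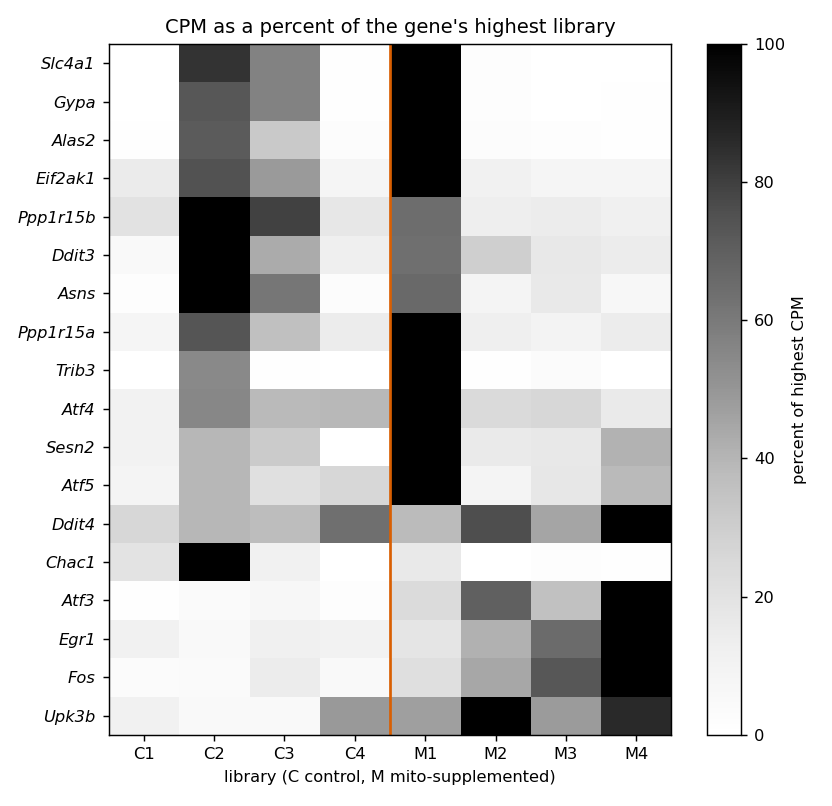
Level of each gene in each library as a percent of the CPM of its own highest library (white 0, black 100), for red cell markers, eIF2 genes, the 10 stress response genes, the immediate-early genes Egr1 and Fos and the surface epithelium marker Upk3b. The vertical line parts control (C) from mito-supplemented (M) libraries. Slc4a1, Eif2ak1, Ddit3, Asns and Ppp1r15a were darkest in C2, C3 and M1, and Atf3, Egr1 and Fos in M2, M3 and M4, though not equally dark in these libraries.

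The other genes of the pathway were described in 7 lists. None held a gene called by the quasi-likelihood test (0% of all genes) or the likelihood ratio test (0.418% of all genes). Of 92 genes listed 89 were tested, and 2 of them had an unadjusted p value under 0.05, both higher in mito-supplemented libraries, against 5.31% of all genes. Their median log2 fold change was -0.20, beside -0.10 over all genes. The 3 libraries high in red cell markers were the 3 highest for 21 of the 89 (23.6%).

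Among 14 genes for eIF2 kinases and eIF2 machinery the median log2 fold change was -0.25, and 12 values were below 0, beside 55.1% of all genes. The largest in absolute size was that of Eif2b4, a subunit of the exchange factor that recharges eIF2, with 16.7 ± 7.83 CPM in control libraries and 7.16 ± 4.02 CPM in mito-supplemented libraries (SD, n = 4) and a log2 fold change of -1.22 ± 0.63 (SE, quasi-likelihood adjusted p = 0.667). Among 12 genes of amino acid and one-carbon synthesis, 6 values were above and 6 below 0 (44.9% and 55.1% of all genes), with a median of -0.23. Gpt2, a mitochondrial alanine transaminase, had 4.31, 4.04, 3.49 and 7.11 CPM in control libraries and 4.51, 14.7, 11.8 and 24.9 CPM in mito-supplemented libraries, with a log2 fold change of 1.57 ± 0.60 (SE, quasi-likelihood adjusted p = 0.626). It was higher than every control in 3 of the 4 mito-supplemented libraries. Cth, which makes cysteine, had a log2 fold change of 1.22 ± 0.95 (SE). The highest means over all 8 libraries were those of Got1, with 22.2 CPM in control libraries and 33.6 CPM in mito-supplemented libraries, and Pck2, with 35.5 and 19.1 CPM, though neither group had these as its 2 highest.

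Of 8 amino acid transporters tested, 5 had a log2 fold change below 0 (55.1% of all genes), and the median was -0.42. Slc38a2, a transporter of neutral amino acids, had 121 ± 83.8 CPM in control libraries and 138 ± 40.0 CPM in mito-supplemented libraries (SD, n = 4). Slc7a5, the transporter of large neutral amino acids, had 66.1 ± 10.3 and 57.5 ± 61.7 CPM (SD, n = 4). Slc1a5, a glutamine transporter, reached 134, 36.7 and 75.3 CPM in control replicates 2 and 3 and mito-supplemented replicate 1 and was at most 5.53 CPM elsewhere. Slc7a1, which carries arginine, was also highest in those libraries, with a log2 fold change of -0.65 ± 0.65 (SE). Of 12 cytosolic tRNA synthetases, 11 were below 0 (55.1% of all genes), with a median of -0.32 and a range from -0.66 to 0.10. The 3 libraries high in red cell markers were the highest for 6 of the 12, among them Cars. Eprs had 326 ± 76.0 CPM in control libraries and 256 ± 78.9 CPM in mito-supplemented libraries (SD, n = 4), Iars had a log2 fold change of -0.09 ± 0.36 (SE), and that of Sars was -0.59 ± 0.55 (SE).

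Of 18 other targets of ATF4 and CHOP, 16 were tested, with a median log2 fold change of 0.12. Cebpb, a partner of ATF4, was at a low level in all libraries, between 0.197 and 0.697 CPM in control libraries and between 0.726 and 3.27 CPM in mito-supplemented libraries. These rest on 17, 6, 5 and 1 counts in control libraries and 28, 13, 16 and 47 counts in mito-supplemented libraries. Its groups did not overlap, but the highest control and the lowest mito-supplemented library, at 0.697 and 0.726 CPM, differed little and rest on 17 and 16 counts, and its log2 fold change was 1.85 ± 0.92 (SE, quasi-likelihood adjusted p = 0.660). Vegfa, the vascular growth factor, was the other target without overlap, with 1.30 (quasi-likelihood adjusted p = 0.626), and is named after its values were seen. Non-overlap was found for 2 of these 16 genes in the higher direction, beside 3% of all genes. Cebpg had 68.2 ± 34.4 CPM in control libraries and 59.5 ± 50.4 CPM in mito-supplemented libraries, and the autophagy receptor Sqstm1 had 39.8 ± 15.3 and 59.1 ± 11.5 CPM (SD, n = 4). Vldlr had a log2 fold change of 1.52 ± 1.10 (SE), and mito-supplemented replicate 4 alone, with 30.9 CPM, was above every control. The hormone gene Fgf21, often raised by mitochondrial stress, and Gdf15 did not pass the filter. Fgf21 was at 0 counts in all 8 libraries, which allows up to 0.123 CPM in the deepest by effective size and up to 0.592 CPM in the shallowest.

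Among 12 genes of mitochondrial stress sensing and mitochondrial chaperones, 11 had a log2 fold change below 0 (55.1% of all genes), with a median of -0.27. Scaled by library size alone, that median was -0.02. Oma1, the inner membrane protease that relays mitochondrial stress to the kinase encoded by Eif2ak1, had 51.3, 19.7, 10.9 and 57.2 CPM in control libraries and 14.0, 21.7, 25.3 and 5.56 CPM in mito-supplemented libraries. Its groups overlapped, and its log2 fold change was -1.06 ± 0.63 (SE, quasi-likelihood adjusted p = 0.686). Clpp, a matrix protease, had -0.88 ± 0.61 (SE). The chaperones Hspa9, with 168 ± 36.3 and 158 ± 24.1 CPM, and Hspd1, with 178 ± 61.3 and 130 ± 34.3 CPM, in control libraries and mito-supplemented samples (SD, n = 4), were the most abundant. In the IRE1 and ATF6 branches of the endoplasmic reticulum stress response, 9 of 15 values were above 0 (44.9% of all genes), with a median of 0.10. The chaperones Hspa5 and Hsp90b1 had log2 fold changes of 0.71 ± 0.34 and 0.32 ± 0.35 (SE), and Manf and Sdf2l1 had 0.71 ± 0.51 and -0.80 ± 0.87 (SE). The quasi-likelihood adjusted p value of Hspa5 was 0.659.

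**Figure D3:**
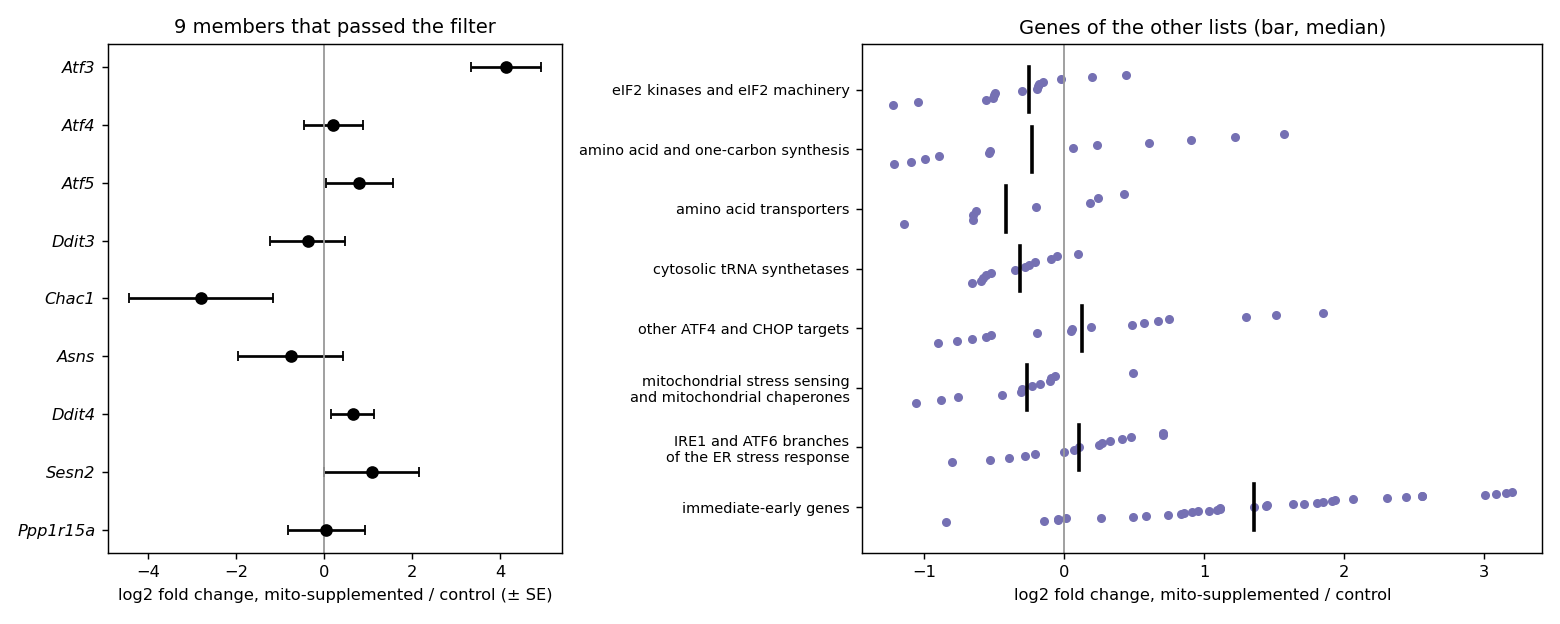
Left, log2 fold change of mito-supplemented over control (bars, SE from the fit across all genes) for the 9 stress response genes that passed the filter. Right, log2 fold change of each tested gene of the other lists (points) with the median of each list (black bar). Atf3 stood at 4.14 and Chac1 at -2.79, and the medians of the 7 pathway lists lay between -0.42 and 0.12, beside 1.36 for the immediate-early genes.

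Immediate-early genes, induced early by many stimuli as Atf3 is, also separated the groups by their summed level. This level was 404, 848, 885 and 534 CPM in control libraries and 1122, 1652, 2259 and 3752 CPM in mito-supplemented libraries, without overlap. Egr1, a zinc finger factor with the highest mean over all 8 libraries, though Jun was above it in controls, had 126, 55.6, 141 and 117 CPM in control libraries and 206, 475, 753 and 1148 CPM in mito-supplemented libraries. Of 35 tested, 31 were above 0 (44.9% of all genes), and the median log2 fold change was 1.36. The quasi-likelihood test called 0 (0% of all genes) and the likelihood ratio test called 4 (0.418% of all genes). An unadjusted p value under 0.05 in the higher direction was found for 13 of them (5.31% of all genes), and 8 did not overlap in that direction (3% of all genes). The AP-1 genes Fos and Fosb had log2 fold changes of 3.15 ± 0.64 and 3.19 ± 0.79 (SE, quasi-likelihood adjusted p = 0.440 and 0.540), and Jun had 1.36 ± 0.63 (SE). The list was chosen with earlier results of these libraries known and is no independent evidence of its direction.

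Levels of cell type markers differed between libraries as well. Oocyte markers, 16 of 16 in the file, summed to 4165 CPM in control replicate 1 and to between 139 and 908 CPM in the other 7 libraries. Nlrp5, the most abundant, ranged from 18.4 to 1392 CPM, Oosp1 was at 0 in 6 libraries and Bmp15 in 3. Neither the quasi-likelihood nor the likelihood ratio test called any oocyte marker (0% and 0.418% of all genes). All 14 tested had a log2 fold change below 0 (55.1% of all genes), with a median of -1.73. This rested on control replicate 1. Without it, as an alternative added after seeing the data, the median was 0.20, and 9 of 14 values were above 0. The mean summed level was then 391 ± 316 CPM in the 3 controls left (SD), beside 402 ± 346 CPM in mito-supplemented libraries (SD, n = 4). Atf3 and all other stress response genes except Chac1, Sesn2 and Trib3 had their lowest control value in control replicate 1. Markers of the ovarian surface epithelium, 11 of 11 in the file and at 0 in no library, summed to 111, 60.2, 43.2 and 426 CPM in control libraries and to 339, 978, 419 and 893 CPM in mito-supplemented libraries. Upk3b had the highest mean over all 8 libraries, though not in controls, and all 11 log2 fold changes were above 0 (44.9% of all genes), with a median of 1.89. Dropping control replicate 4, also added after seeing the data, moved the median to 3.36, and dropping any other library left it at 2.09 or less and above 0. The likelihood ratio test called 2 of them (0.418% of all genes), Upk1b and Gpm6a, named after their values were seen, and the quasi-likelihood test called 0. Unadjusted p values under 0.05 were found for 7 of the 11 (5.31% of all genes), and 2 did not overlap (3% of all genes), all in the higher direction. Gpm6a had the lowest quasi-likelihood adjusted p value of all genes, 0.418. Pregranulosa and granulosa markers, 14 of 14 in the file and led by Wt1, had a mean summed level of 362 ± 267 CPM in control libraries and 785 ± 297 CPM in mito-supplemented libraries (SD, n = 4), and Foxl2 was detected in every library while Amh, Cyp19a1, Fshr or Hsd17b1 were at 0 in some. Of 11 tested, 9 were above 0 (44.9% of all genes), with a median of 0.63 (0.28 without control replicate 2 and 1.22 without control replicate 4), 2 had an unadjusted p value under 0.05 in the higher direction (5.31% of all genes), and 1, Lgr5, did not overlap (3% of all genes). Neither the quasi-likelihood nor the likelihood ratio test called any (0% and 0.418% of all genes). Wt1 had 137 and 355 CPM and Lgr5 32.4 and 175 CPM in the respective groups, whereas the 2 genes below 0 were Kitl, with 67.0 and 50.7 CPM, and Inhbb, with 21.3 and 17.9 CPM. These genes other than Wt1 are named after their values were seen. Stromal markers, led by Col3a1 over all 8 libraries and by Col1a1 in controls, had 934 ± 884 and 1683 ± 816 CPM, endothelial markers, led by Kdr, 83.5 ± 96.9 and 181 ± 56.6 CPM, and smooth muscle and pericyte markers, led by Myh11, 94.8 ± 109.6 and 158 ± 140.1 CPM (SD, n = 4). Control replicate 4 held most of the control level of each, with 2248 CPM for stroma (367 to 658 CPM in the other controls), 228 CPM for endothelium (27.3 to 48.9) and 258 CPM for smooth muscle (31.2 to 55.6). All 10 stromal values were above 0, as were 6 of 9 endothelial and 6 of 7 smooth muscle values (44.9% of all genes), with medians of 0.74, 0.85 and 0.88. Without control replicate 4 these medians were 1.62, 1.56 and 2.10, while without mito-supplemented replicate 4 those of stroma and smooth muscle were 0.44 and -0.03, and without mito-supplemented replicate 3 that of endothelium was 0.14. All markers listed for these 3 types were in the file, and Egfl7, Tie1, Cldn5 and Rgs5 were at 0 in 1 or more libraries. Of the markers of these 3 types, the likelihood ratio test called 1 gene (0.418% of all genes) and the quasi-likelihood test called 0 (0% of all genes). The called gene was Esam of the endothelial list, named after its values were seen. In that list 1 gene had an unadjusted p value under 0.05 in the higher direction (5.31% of all genes). In the same direction 1 did not overlap (3% of all genes), and the stromal and smooth muscle lists held 0 of each. The part of these cell types and of dissociation in the difference of Atf3 was not tested.

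**Figure D4:**
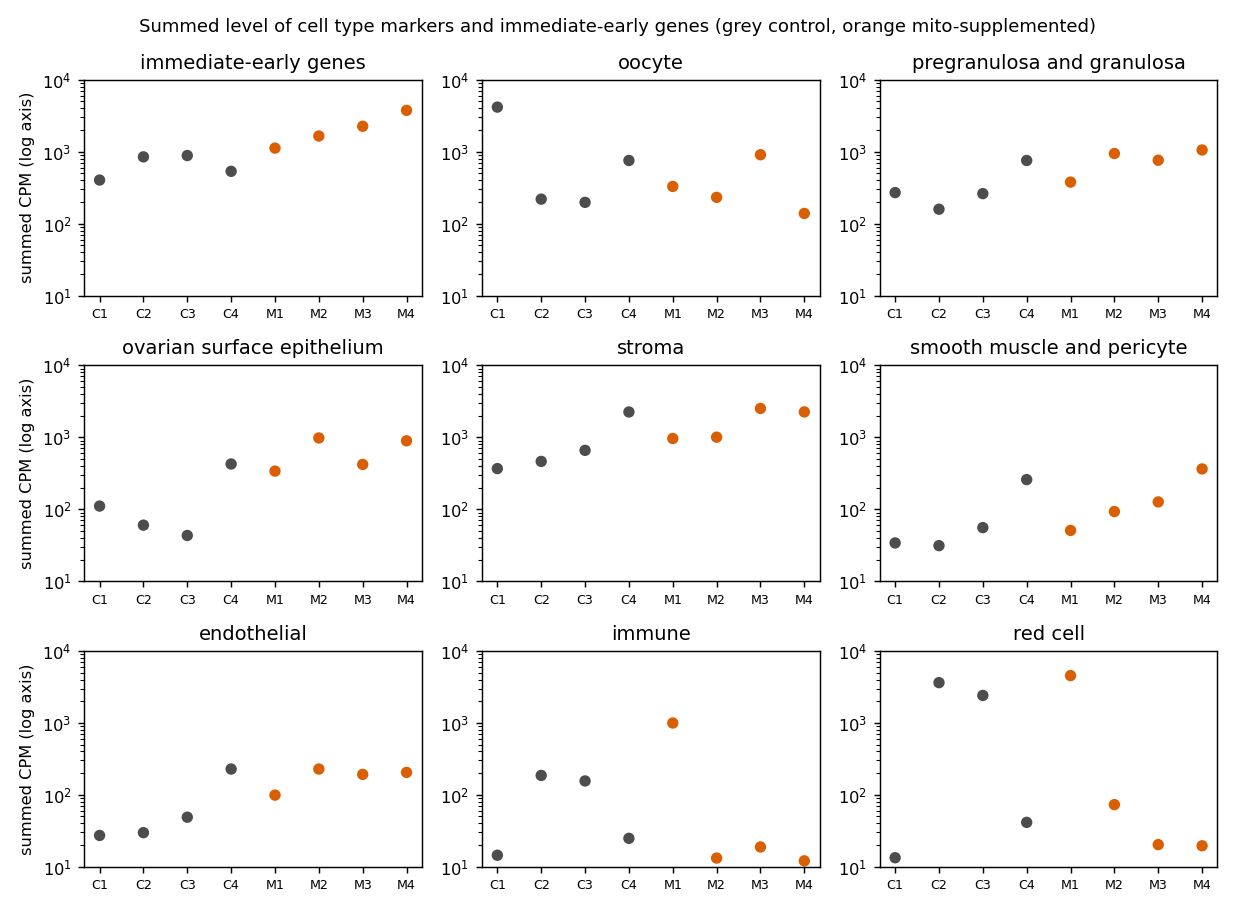
Summed CPM of immediate-early genes and of the markers of each cell type in each library (log axes), with control libraries in grey and mito-supplemented libraries in orange. Red cell markers stood at 2404 CPM or more in C2, C3 and M1 and at 73.1 CPM or less in the other 5 libraries, and oocyte markers stood highest in C1.

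The mitochondrial ribosomal RNA entries Rnr1 and Rnr2 took 19.4%, 37.8%, 36.6% and 74.0% of the counts in control libraries and 14.9%, 44.3%, 34.8% and 42.2% in mito-supplemented libraries. Control replicate 4 had the highest share and the fewest counts, and it held 3 of the 10 stress response genes at 0. Leaving it out gave a log2 fold change of 3.91 for Atf3.

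The genes with a pattern most like Atf3 were found by Pearson's r of log2 CPM, as a description over 8 libraries that fall in groups. Over all 8 libraries these were Usp13 (r = 0.991), 4833432E10Rik (0.987), Nfkb1 (0.986), Acvrl1 (0.980) and Oat (0.977). Nfkb1, a subunit of the transcription factor NF-kappa-B, had 12.6 ± 4.53 CPM in control libraries and 29.7 ± 5.2 CPM in mito-supplemented libraries (SD, n = 4), and Acvrl1, a receptor of endothelial cells, had 0.566 ± 0.429 and 8.95 ± 5.64 CPM (SD, n = 4). Genes picked over all 8 libraries for likeness to Atf3, which separated the groups, largely differ between groups by that choice. Nothing is read from their group differences, including that of Oat. Over deviations from the group means, which take out the difference between groups, they were 4931414P19Rik (0.968), Cacnb1 (0.967), Oat (0.967), 6330549D23Rik (0.966) and Tspan12 (0.965). All but Oat had few control counts. For replicates 1 to 4 these were 0, 12, 36 and 1 for 4931414P19Rik and 3, 24, 41 and 1 for Cacnb1. They were 2, 5, 17 and 1 for 6330549D23Rik and 0, 26, 48 and 1 for Tspan12. The highest r of so many genes over 8 libraries can be this large by chance alone. Oat, ornithine aminotransferase, was in both lists, with 42.9 ± 9.26 CPM in control libraries and 73.1 ± 16.5 CPM in mito-supplemented libraries (SD, n = 4). No other member of the stress response list was among these genes. With only 5 of 13873 tested genes in each list, that absence was likely in advance, and nothing is read from it. Since the libraries fall in separate clusters, no correlation between the stress response genes themselves is given.

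Promoter sequences are shown because Atf3 parted from genes that share its known activator. RefSeq promoters (GRCm38.p6) were matched for all 10 genes, and the 250 bases before each start were searched on both strands for TGATGNAA, the core of the element that ATF4 and C/EBP factors are known to bind, and for TNACGTCA, a form of the cyclic AMP response element. The first was held by Atf3, Chac1 and Asns, and by 3.45% of all 32851 promoters in the table. The second was held by Atf3 and Ppp1r15a, and by 2.52% of all. These shares count promoters, of which 27025 symbols hold the 32851, while the members are counted by gene. Sequence outside the 250 bases was not searched, so that no match here does not mean that a gene lacks the element. The stretches below, 5′ to 3′ on the strand of the gene with a match in capitals, end before the first annotated exon. That of Atf3 covers chr1:191183341-191183583 on the minus strand, inside the annotated gene but outside its exons, that of Chac1 chr2:119350992-119351228 on the plus strand, and that of Ppp1r15a chr7:45526269-45526329 on the minus strand, both just outside the gene.
Atf3: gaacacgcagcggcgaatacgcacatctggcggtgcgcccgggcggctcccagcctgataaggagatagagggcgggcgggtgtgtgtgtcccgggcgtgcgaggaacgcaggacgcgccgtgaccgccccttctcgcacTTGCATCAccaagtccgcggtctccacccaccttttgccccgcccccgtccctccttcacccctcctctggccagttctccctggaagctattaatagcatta
Chac1: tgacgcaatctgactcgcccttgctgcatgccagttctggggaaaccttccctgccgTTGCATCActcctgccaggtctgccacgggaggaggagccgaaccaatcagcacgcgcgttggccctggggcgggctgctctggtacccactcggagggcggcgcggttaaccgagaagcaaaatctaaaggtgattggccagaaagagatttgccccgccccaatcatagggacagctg
Ppp1r15a: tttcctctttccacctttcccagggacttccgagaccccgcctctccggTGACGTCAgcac
The second match of Atf3, TTACGTCA, begins 10 bases before the RefSeq start, and that of Asns, TGATGAAA, begins 23 bases before it, both within or across an annotated exon and so not shown in a stretch. Atf3, Chac1 and Asns, which share the first motif, did not share an order of libraries: Atf3 was highest in mito-supplemented replicate 4, and Chac1 and Asns were highest in control replicate 2. A match is a description of letters and not a measured binding site.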

How the data were processed

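Total RNA of primordial follicles from 8 samples was amplified, made into libraries and sequenced. The authors trimmed the reads with Trim Galore 0.4.4, mapped them to GRCm38 with STAR 2.5.3a and counted them on exons with featureCounts. The deposited values are raw counts per gene symbol. The annotation release and the handling of strand and of shared reads are not given in the sources used here. A further control library that the authors set aside was not analysed here.

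edgeR 4.0.16 in R 4.3.3 was run with TMM normalisation and its default expression filter (10 counts as minimum, 4 libraries), and its quasi-likelihood test compared 4 mito-supplemented with 4 control libraries. Standard errors came from the fold change and the F statistic. Log2 CPM had a prior count of 2. DESeq2 1.42.0, limma 3.58.1, other normalisations, filters, a replicate block and left-out libraries were alternatives. Coordinates and exon lengths are from GENCODE M21. Named genes of a list were the 2 most abundant by mean CPM over all libraries and the 2 with the largest absolute log2 fold change, besides the most abundant marker of each cell type and the 5 genes most like Atf3 by each measure. The members and lists were chosen with earlier results of these data known. Of the markers, Hbb-bt and Ahsp were not matched. Intervals from counts cover counting error only.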

Additional observations from a re-analysis of the deposited data

Results flagged for a closer look

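Of 52 groups of 4 libraries examined, 2 held a library far from the others, and chance alone sets apart about 1 in 20 such groups. For Trib3 in controls, replicate 2 was far above the others in log2 CPM, with a gap of 0.842 of the group's range. For the mean log2 CPM of the cytosolic tRNA synthetases in mito-supplemented samples, replicate 1 was far above the others, with a gap of 0.888 of the range. Both libraries were among the 3 with high red cell markers, whose part in these values was not tested.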

How the results depend on the processing

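The count of genes called was 0 with the quasi-likelihood test under every normalisation, filter and grouping tried, and leaving out each library in turn gave counts from 0 to 0. The likelihood ratio test called 58, DESeq2 called 141 and limma-voom with sample quality weights called 2578, and the cause was not tested. The estimated weights ran from 0.231 in control replicate 1 to 3.53 in control replicate 3, and limma-voom without weights, added after seeing the data, called 0. Same-numbered libraries did not deviate together (r of -0.24, -0.19, -0.33 and 0.22 across genes), so that the numbers were not taken as pairs, and the fit with a replicate block called 0 genes. The median over all genes tested was -0.10, and it became 0.17 when counts were scaled by library size alone. Over the 9 members tested and 8 list medians, 361 of 373 values under alternatives lay within 1 SD of the libraries from the value reported, and 34 had the other sign. Atf3 stayed positive in all, between 3.24 and 6.13. Ddit4 and Chac1 kept their sign, and Atf4, Atf5, Ddit3, Asns, Sesn2 and Ppp1r15a did not. Atf4, Atf5, Sesn2 and Ppp1r15a were -0.52, -0.49, -0.36 and -1.51 with sample quality weights. With the red cell marker covariate, added after seeing the data, Ddit3 was 0.60 and Asns 1.11. Chac1 had no value without the 3 libraries high in red cell markers, as it did not pass the filter there. Trib3 had a value only where the filter admitted it (0.93 with the loosest filter). The list median of the immediate-early genes was above 0 under all alternatives. Those of the eIF2 genes, tRNA synthetases and mitochondrial stress genes were below 0 in all but came close to it, with -0.04 and -0.02 for the eIF2 and mitochondrial lists when scaled by library size alone and -0.04 for the tRNA synthetases without control replicate 2. The mitochondrial list, the amino acid and one-carbon list and the list of the IRE1 and ATF6 branches each moved by more than 1 SD in 2 settings. The other 4 medians, of amino acid synthesis, amino acid transporters, ATF4 and CHOP targets and the IRE1 and ATF6 branches, changed sign under 1 or more. Leaving out 1 library gave -0.005 to 0.37 for the ATF4 and CHOP targets and -0.02 to 0.26 for the IRE1 and ATF6 branches.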
